A study of Mus musculus with 9 samples.

Results

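Amy2a5, Mucl2 and AY761185 are 3 mouse genes of secretory epithelium that an array of the abdominal aorta happened to name. They were taken as the probes whose RefSeq accession in the scanner files belongs to 1 of these symbols, which gave 3 of the 112 gene symbols named among 59709 probes, with 1 probe of 1 spot each. They were chosen by their levels, which earlier results of the same arrays had shown to differ between arrays. Every level and difference given for them is therefore a description, with no test.

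The 9 single-colour Agilent arrays measured RNA of the abdominal aorta of male mice, 3 arrays per group. The control group was titled wild type, with control given as its treatment. The CaPO4 group had an aneurysm induced with calcium phosphate, which injures the vessel wall from outside, and the naringenin group had such an aneurysm and was given naringenin, a flavonoid of citrus fruit. Strain, age, dose and duration are not given in the sources used here. The design text says that 5 aortas of each kind were mixed, without saying whether an array held a pool or a single animal, so the spread between arrays may be technical. Fewer cells of a type and less RNA per cell cannot be told apart in such bulk tissue.

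Alpha-amylase cuts starch into shorter sugars, and the acinar cells of the pancreas and the serous cells of salivary glands make it in large amounts for export into ducts. In the mouse the gene family lies in 1 row on chromosome 3, where the name table lists 7 coding members, and Amy2a5 sits between Amy2b and Amy2a4 as a pancreatic form. Mucl2, mucin-like 2, carries the older symbol Spt1, for salivary protein 1, and lies on chromosome 15. AY761185 is known by the accession of its cDNA. It lies on chromosome 8 directly beside Defa21, in a region of alpha-defensin genes (29 coding genes named Defa), whose products are antimicrobial peptides released by Paneth cells at the base of the intestinal crypts. None of the 3 is a gene for which the vessel wall is known.

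The regulatory DNA just ahead of the 3 genes is shown so that the elements at each start can be compared beside the levels, which differ in direction. The sequences are the 250 bases before each annotated start, from RefSeq on GRCm38.p6. The array design is annotated to mm9, and no measured value rests on these coordinates. Capitals mark each match to TATAAA, the TATA box, or to CANNTG, the E-box bound by basic helix-loop-helix factors, on either strand. CAGCTG and TTTCCC were searched in the same way.
Amy2a5, chr3:113258700-113258949, minus strand: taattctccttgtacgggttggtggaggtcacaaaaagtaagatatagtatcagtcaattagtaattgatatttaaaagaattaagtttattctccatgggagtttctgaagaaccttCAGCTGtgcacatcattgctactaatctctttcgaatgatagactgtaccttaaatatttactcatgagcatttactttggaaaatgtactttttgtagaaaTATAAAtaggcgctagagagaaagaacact
Mucl2, chr15:103899313-103899562, minus strand: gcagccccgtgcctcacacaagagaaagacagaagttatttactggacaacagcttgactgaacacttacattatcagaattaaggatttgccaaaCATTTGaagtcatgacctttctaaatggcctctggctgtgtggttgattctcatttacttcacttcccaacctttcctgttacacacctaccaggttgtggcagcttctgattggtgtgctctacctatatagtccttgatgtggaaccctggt
AY761185, chr8:20944749-20944998, minus strand: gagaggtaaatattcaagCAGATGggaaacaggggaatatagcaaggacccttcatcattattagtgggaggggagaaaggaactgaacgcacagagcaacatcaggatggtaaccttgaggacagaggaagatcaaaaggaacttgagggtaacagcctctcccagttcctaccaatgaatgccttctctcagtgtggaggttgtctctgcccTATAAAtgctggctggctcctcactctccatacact
TATAAA stood 30 bases before the start of Amy2a5 and 36 before that of AY761185, and these exact letters were not in the Mucl2 window. Near matches, such as the tatata close to the end of the Mucl2 window, were not counted. Whether Mucl2 has a TATA box was thus not tested. TATAAA was in 12.4% of 32851 promoter windows of the same length. Each of the 3 windows held 1 CANNTG, as 66.2% of all windows held at least 1. In Amy2a5 it read CAGCTG, a form found in 13.0% of windows. TTTCCC, the TC-box that accompanies an E-box in sites of the pancreatic factor PTF1, matched in the AY761185 window on the reverse strand, sharing 1 base with the CAGATG there, and in neither other window, against 21.9% of all windows. When the same 250 bases were aligned with gaps allowed, Amy2a5 had 168 bases in common with Amy2b and 133 with each of Amy2a2, Amy2a3 and Amy2a4. It had 130 with Amy2a1, and 129 and 120 at the starts of Amy1, the salivary and liver form. The number that unrelated windows share by this alignment was not computed, so these counts alone show no likeness. The files give no probe sequence, so signal from these amylase copies cannot be told apart from that of Amy2a5.

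Levels are log2 signal minus the 75th percentile of the array, so that 0 is that percentile and 1 unit is a doubling. Well above background is the scanner software's own mark for a spot that stands clear of its surroundings. Arrays differed in overall brightness, with a 75th percentile of 119 to 120 on the controls, 43.7 to 85.0 on CaPO4 and 88.7 to 239 on naringenin, in arbitrary units of signal. Between 37.1% and 84.1% of probes were well above background on an array, most on naringenin 3. The controls were scanned together, the CaPO4 arrays and naringenin 1 and 2 in another scan, and naringenin 3 alone, so in comparisons with the controls a scan effect and a group effect cannot be told apart. The CaPO4 group was not uniform for Amy2a5 or Mucl2, as CaPO4 2 stood apart from CaPO4 1 and 3, and values that rest on it are given with and without it. For Amy2a5 it lay with the naringenin arrays, and whether its label is right was not tested.

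The labelled tissue could not be checked with marker genes. Of 175 markers in 11 lists, the array named 2, Ccl21b and Ccl21c, chemokines of lymphatic vessels and lymph node stroma. None of 13 markers of vascular smooth muscle or 9 of endothelium was named. Likewise 0 of 41 other markers of pancreatic acinar cells, 0 of 19 of salivary and lacrimal glands and 0 of 36 of Paneth cells and intestinal epithelium were. The search covered the 116 of 123 RefSeq accessions that matched the name table. A marker under an unmatched accession would be missed. Whether pancreas or gut tissue was part of any sample was not tested, and the 3 genes are the named probes chosen to describe it. Ccl28 and Defb33, other named genes that may bear on it, are given under other observations.

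Amy2a5 was brighter than 76.3 to 88.1% of probes on 5 arrays and among the very brightest on the other 4. Its signal was 129, 173 and 195 on control 1 to 3, and 187 and 180 on CaPO4 1 and 3. On CaPO4 2 the signal was 180621, and on naringenin 1 to 3 it was 181712, 209581 and 233866. The signal of CaPO4 2 was thus 968 times that of CaPO4 1, an array of the same group and scan. The software gave an error of 18062 to the spot on CaPO4 2 and of 18.9 to that on CaPO4 1 as the noise of the spot itself, which does not measure the spread between samples.

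Relative to all probes, Amy2a5 lay at ranks 14072, 11982 and 11271 by brightness on the controls, where rank 1 is the brightest probe of an array. It lay at 7102 and 7182 on CaPO4 1 and 3, at 17 on CaPO4 2, and at 12, 12 and 9 on naringenin 1 to 3. It was the brightest of the 123 RefSeq probes on these last 4 arrays, and between rank 34 and 49 among them on the other 5. The single spot held 0.238% of the summed signal of all probes on CaPO4 2 and 0.301, 0.325 and 0.275% on naringenin 1 to 3. That share was 0.000282 to 0.000396% in the control group, with 0.000822 and 0.000828% for CaPO4 1 and 3. A share of the summed signal does not rest on the 75th percentile, and it too set CaPO4 2 beside naringenin. No member spot was saturated, and Amy2a5 reached 56.0 to 77.7% of the brightest probe on the 4 arrays.

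**Figure D1:**
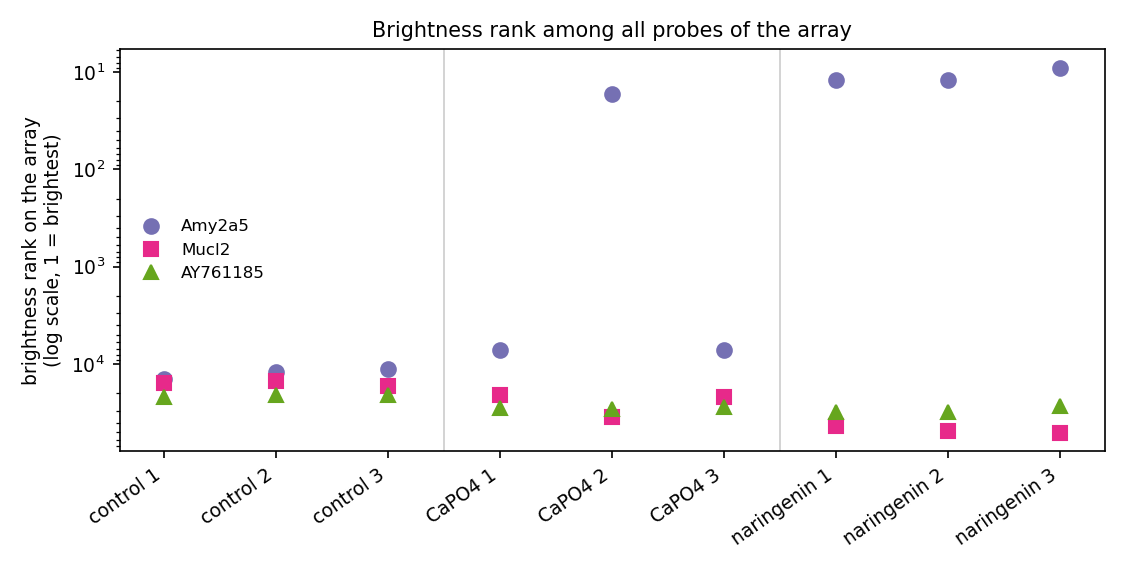
Brightness rank of the 3 genes (vertical axis, log scale, 1 is the brightest probe) on each of the 9 arrays, with grey lines between groups. Amy2a5 sits at ranks 9 to 17 on CaPO4 2 and naringenin 1 to 3 and at 7102 to 14072 elsewhere, while Mucl2 and AY761185 never rank above 14752.

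On the scaled level, Amy2a5 stood at 0.10, 0.54 and 0.70 on control 1 to 3, at 2.03, 11.05 and 2.04 in CaPO4 replicates 1 to 3, and at 11.00, 11.12 and 9.93 on naringenin 1 to 3. Means were 0.45 ± 0.31 for control, 5.04 ± 5.21 for CaPO4 and 10.69 ± 0.66 for naringenin (SD, n = 3). CaPO4 and naringenin overlapped because of CaPO4 2, which lay above naringenin 1 and 3 and 9.02 above the mean of CaPO4 1 and 3. CaPO4 1 and 3 differed from each other by 0.01.

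The naringenin mean was above the control mean by 10.24 ± 0.42 (SE, n = 3 per group), a 1206-fold difference, and the lowest naringenin array lay 9.23 above the highest control. Of 36923 probes compared, 19 had a larger positive difference. Groups that did not overlap were common here, at 33.9% of probes with naringenin higher and 34% with naringenin lower. So it is the size of the difference, and not the separation, that sets Amy2a5 apart from most probes.

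The mean of CaPO4 was above control by 4.59 ± 3.01, and that of naringenin above CaPO4 by 5.64 ± 3.03. Both SEs are large because of CaPO4 2, without which the differences were 1.59 and 8.65. Within the shared scan, naringenin 1 and 2 were above the CaPO4 mean by 6.02, or by 9.02 without CaPO4 2. All CaPO4 arrays were above all controls, a separation with CaPO4 higher that 22.9% of probes showed. In unscaled signal the groups overlapped: CaPO4 1 and 3 exceeded the controls by 0.17 log2, and control 3 was brighter than either. By rank, CaPO4 1 and 3 at 7102 and 7182 were brighter than the controls at 11271 to 14072. The groups also stayed apart by the array median and after quantile normalisation. These measures all rest on the other probes of the array, as the scaled level does, so they are not independent of it. CaPO4 1 and 3 had the lowest 75th percentiles, 45.5 and 43.7, and the fewest probes well above background, 40.2% and 37.1%. Whether Amy2a5 itself rose on these arrays was not tested.

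**Figure D2:**
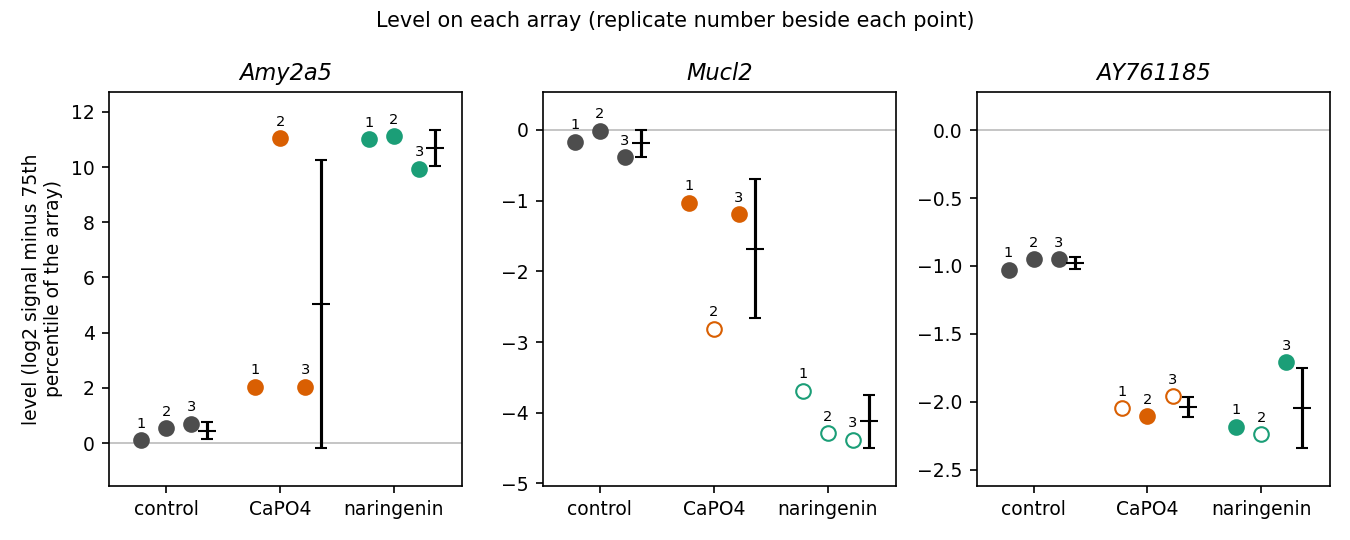
Level (log2 signal minus the 75th percentile of the array) of Amy2a5, Mucl2 and AY761185 on each array, by group, with replicate numbers. Filled points are well above background and open points are not, and bars give the mean ± SD of 3 arrays. CaPO4 2 lies at 11.05 for Amy2a5, next to naringenin, at -2.81 for Mucl2, where neither it nor naringenin is well above background, and at -2.10 for AY761185, where it is the filled point of its group.

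Mucl2 ran the other way. Its signal was 107, 118 and 91.5 on control 1 to 3, 22.3, 12.1 and 19.1 in CaPO4 replicates 1 to 3, and 6.88, 4.82 and 11.5 on naringenin 1 to 3. It was well above background on all controls and on CaPO4 1 and 3, but not on CaPO4 2 or any naringenin array. The software's weaker mark, signal significant over background, was given on CaPO4 2 and naringenin 1 and 3 but not on naringenin 2. The negative control spots, which match no mouse transcript, had median signals of 3.13, 4.80 and 3.72 on naringenin 1 to 3. Mucl2 on naringenin 2 was thus about as dim as these spots.

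The level of Mucl2 was -0.17, -0.02 and -0.39 on the controls, -1.03, -2.81 and -1.19 in CaPO4 replicates 1 to 3, and -3.69, -4.29 and -4.38 on naringenin 1 to 3. The groups did not overlap in any comparison, and CaPO4 2 was the CaPO4 array with the lowest level. Its value and those of naringenin were not well above background, so their order is not measured: raised to the lowest level well above background, CaPO4 2 stood at -2.74 and naringenin 1 to 3 at -2.66, -2.09 and -4.35. By brightness Mucl2 moved from ranks 14752 to 16939 on the controls to 20897, 35164 and 21938 on CaPO4 and 43692 to 50848 on naringenin.

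No naringenin array measured Mucl2 well above background, so its scaled difference from control has a lower bound. The bound is set by the dimmest probe that was well above background on each array. Mucl2 was at least 7.17-fold lower in naringenin than in control. No bound is given against CaPO4, where CaPO4 2 was not well above background either. The measured means were -4.12 ± 0.37 for naringenin, -1.68 ± 0.98 for CaPO4 and -0.19 ± 0.19 for control (SD, n = 3). CaPO4 lay below control by 1.49 ± 0.58 (SE; a difference of -0.92 without CaPO4 2), with 2 of 3 CaPO4 arrays well above background. Separation with the first group lower was seen in 25.6% of probes for CaPO4 minus control, 11.7% for naringenin minus CaPO4 and 34% for naringenin minus control. CaPO4 minus control for Mucl2 kept its sign in all settings, from -0.46 with normexp, a background correction by a model of signal plus noise, to -2.60 without scaling. Naringenin minus control was -1.43 with normexp, so the 7.17-fold bound does not hold for every processing. Raising each value not well above background to the array's lowest level that was made the naringenin and CaPO4 groups overlap for Mucl2. The separation thus rests on values not well above background.

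AY761185 lay near the middle of all probes, brighter than 63.3 to 65.0% of them on the controls and than 47.9 to 54.5% on the other arrays. Its signal was 58.9, 61.6 and 61.9 on control 1 to 3 and 11.0, 19.8 and 11.2 in CaPO4 replicates 1 to 3. On naringenin 1 to 3 it was 19.5, 19.9 and 73.3. It was well above background on all controls, but only on CaPO4 2 of the CaPO4 group and on naringenin 1 and 3. The high signal on naringenin 3 came with an array that was brighter throughout.

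After scaling, the level of AY761185 was -1.03, -0.95 and -0.95 for control 1 to 3, -2.05, -2.10 and -1.96 for CaPO4 and -2.18, -2.24 and -1.71 for naringenin. The 3 controls were higher than all other arrays, and CaPO4 and naringenin overlapped. Of all probes compared, 25.6% were lower without overlap in CaPO4 minus control and 34% in naringenin minus control. CaPO4 2 lay 0.10 below the mean of CaPO4 1 and 3, which were not well above background, while its unscaled signal was 1.80 times that of CaPO4 1. Group means were -0.98 ± 0.04, -2.04 ± 0.07 and -2.04 ± 0.29 (SD, n = 3) for control, CaPO4 and naringenin.

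CaPO4 was below control by 1.06 ± 0.05 and naringenin below control by 1.07 ± 0.17 (SE, n = 3 per group) in the measured means, which include values not well above background on 2 CaPO4 arrays and 1 naringenin array. With these raised to the lowest level well above background, the differences were -0.62 and -1.02. The measured levels of naringenin and CaPO4 differed by -0.01 ± 0.17. Among all probes, 18.7% had a more negative difference than AY761185 in CaPO4 minus control and 25.5% in naringenin minus control, so its size was ordinary for this array. The comparison with control depended on processing: without scaling naringenin 3 was brighter than every control, and with normexp the difference of CaPO4 from control was -0.16 and the groups overlapped.

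**Figure D3:**
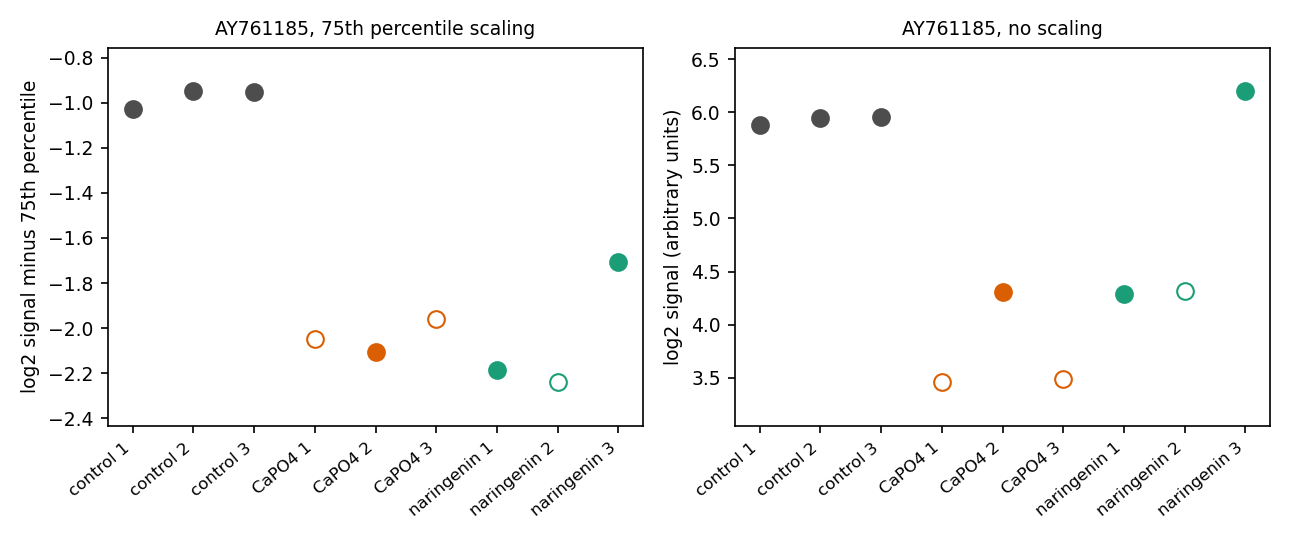
AY761185 on each array as log2 signal minus the 75th percentile of the array (left) and as unscaled log2 signal (right). Grey, orange and green points are control, CaPO4 and naringenin, and open points are not well above background. Naringenin 3 lies below the controls at -1.71 in the left panel and above them in the right panel.

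The shape of the Amy2a5 profile was then compared with that of other named probes. Each probe's level was scaled so that its lowest array was 0 and its highest was 1, and the mean absolute difference to Amy2a5 over the 9 arrays was taken, 0 being the same shape. A probe was said to follow Amy2a5 when this was under 0.1, and to oppose it when the difference to the turned profile, 1 minus that of Amy2a5, was. Probes had to be well above background on at least 3 arrays and span at least 2 log2. The measure is a description over 9 arrays that all probes share.

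Of 85 other RefSeq probes, 36 followed Amy2a5 and 4 opposed it. The 36 include probes above background only on arrays where Amy2a5 is high, whose following is partly set by the filter. Over all 23234 probes of any kind 5.34% followed and 4.65% opposed, against 42.4% and 4.71% of the RefSeq probes. Of 21 Y-linked RefSeq probes 16 followed and 0 opposed, and so did 4 of 8 X-linked ones, with 1 opposing. Among the 56 others 16 followed and 3 opposed. Many of the X- and Y-linked genes are near-identical copies whose probes are not independent. The 56 others also hold gene copies, such as Ccl21b and Ccl21c, so these shares do not count independent genes. LincRNA probes leaned the other way, with 33 of 1613 following and 102 opposing. Without scaling 21 of 104 RefSeq probes followed and 0 opposed, and with normexp 26 of 50 and 0. With detection required on all arrays, 23 of 51 followed and 3 opposed. The shares over all probes were not counted in these settings, so whether the RefSeq excess holds there was not tested.

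The 8 RefSeq genes nearest to Amy2a5 were Gm20736, Gm20809, Gm20826 and Gm20831 (Y-linked predicted genes), Gm10487 on the X chromosome, Sly, Disp1 and Gm13305, with differences of 0.03 to 0.05. Sly, a spermatid gene of the Y chromosome, stood at -1.83, -2.03 and -1.55 on the controls, -1.17, 1.45 and -1.81 in CaPO4 replicates 1 to 3 and 1.52, 1.54 and 0.89 on naringenin. Disp1, which releases lipid-bound Hedgehog proteins from cells, stood at 0.05, 0.31 and 0.42, then 0.63, 3.32 and 0.73, then 3.05, 3.10 and 2.38. In each of the 8, CaPO4 2 lay above CaPO4 1 and 3, as for Amy2a5. Their spans of 3.06 to 3.92 log2 were far smaller than the 11.02 of Amy2a5. Gm20736 and Gm10487 were well above background on CaPO4 2 and naringenin alone, so they passed the filter only where they are high, and their low values elsewhere have no order.

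Of the RefSeq genes, G6pd2, Gk, Gm3286, Mucl2 and E330014E10Rik were nearest to the turned profile, with differences of 0.06 to 0.10, the last of them just outside the limit. Gk, the glycerol kinase, was measured with 20 spots per array and stood at 1.63, 1.68 and 1.56 on the controls, 1.23, -1.05 and 1.21 in CaPO4 replicates 1 to 3 and -0.73, -0.89 and 0.04 on naringenin. G6pd2, an intronless relative of the glucose-6-phosphate dehydrogenase gene, also had 20 spots, with 1.93, 2.13 and 2.08, then 1.58, -0.20 and 1.73, then 0.11, 0.06 and 0.22. In both, CaPO4 2 was the lowest array of all 9. Mucl2 was at place 4 of 85 in this order, and CaPO4 2 lay at 0.36 of its range. AY761185 differed from the turned profile by 0.21 and so did not oppose Amy2a5 by the limit used.

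Among named noncoding elements and cDNA clones, ENSMUST00000146670 was nearest to Amy2a5 at 0.03, with 0.56 to 0.73 on the controls, 1.12, 2.92 and 0.94 in CaPO4 replicates 1 to 3 and 2.93 to 3.26 on naringenin. MM9LINCRNAEXON12097-, AK033774, AK147535 and MM9LINCRNAEXON11111- came next, of which AK033774 and MM9LINCRNAEXON11111- were above background on no control and passed the filter only where they are high. The lincRNA MM9LINCRNAEXON11048+ was nearest to the turned profile, also at 0.03. It was bright on the controls, at 8.61 to 8.73, and stood at 8.31, 5.37 and 8.05 on CaPO4 and 5.41 to 5.61 on naringenin. The lincRNA humanlincRNA0806+, the clone AV491747, MM9LINCRNAEXON11814- and MM9LINCRNAEXON11486- followed in that order.

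**Figure D4:**
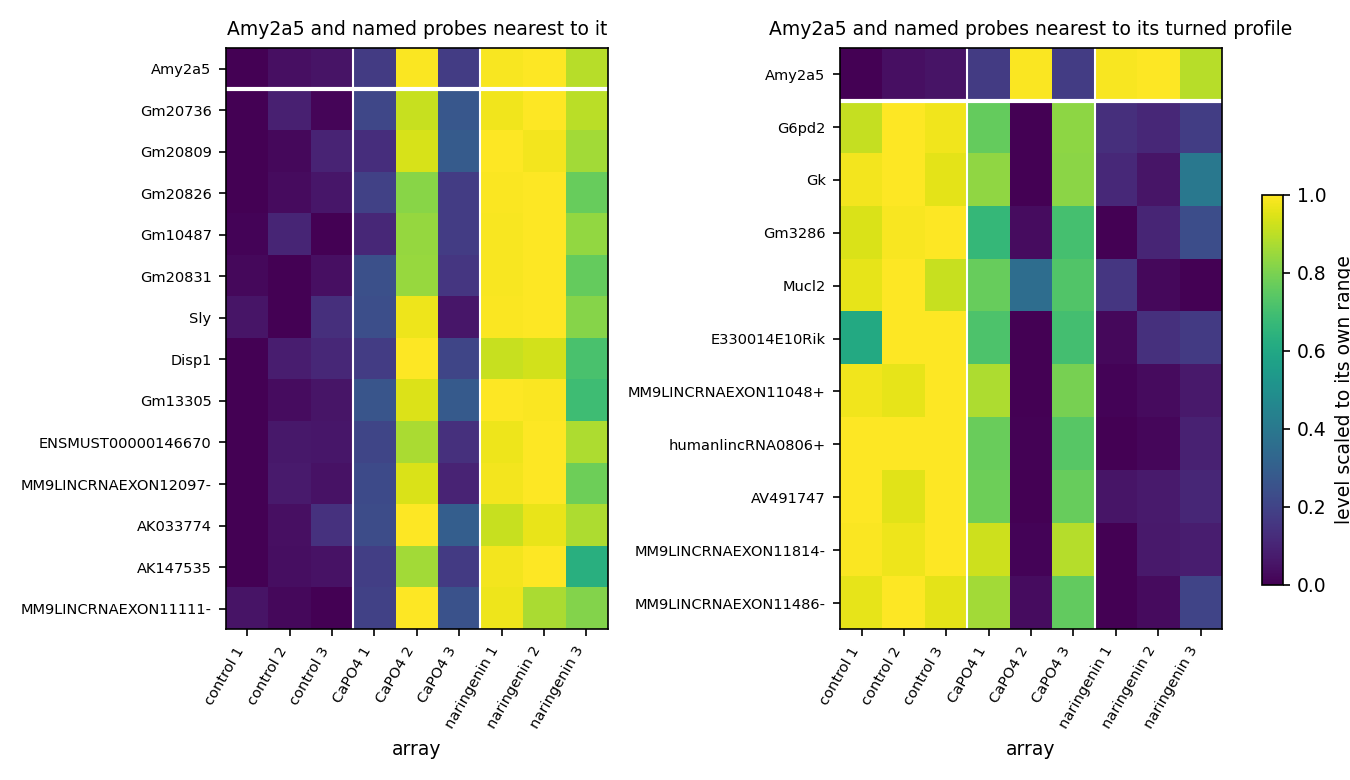
Level of each probe scaled to its own range (colour, 0 is its lowest array and 1 its highest) on the 9 arrays, for Amy2a5 (top row) and the named probes nearest to it (left) or to its turned profile (right). CaPO4 2 has the colour of the naringenin columns in nearly every row, and Mucl2, at 0.36 there, is the row where it differs most.

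The 23 probes were picked for their shape, so their directions are no result. Which probes were nearest depended on the setting: 0 of the 13 following and 3 of the 10 opposing were named again without scaling, and 2 and 3 by Spearman's rho. The sign of naringenin minus CaPO4 turned without scaling for G6pd2, Gk and E330014E10Rik, and with normexp for AK033774 and MM9LINCRNAEXON11111-. That of CaPO4 minus control turned without scaling for ENSMUST00000146670 and MM9LINCRNAEXON12097-. Without scaling the median of all probes was -1.16 in CaPO4 minus control and 1.30 in naringenin minus CaPO4.

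For Mucl2 and AY761185 the nearest named probes were noncoding or cDNA clones. The clone BE947970, the lincRNA humanlincRNA0049+ and MM9LINCRNAEXON11201- differed from Mucl2 by 0.04 to 0.05. BE947970 stood at 0.66 to 0.78 on the controls, 0.28, -1.74 and -0.03 in CaPO4 replicates 1 to 3 and -2.46 to -2.77 on naringenin, and was well above background on 8 arrays. It was picked for this shape, which therefore bears on no value of Mucl2. MM9LINCRNAEXON10189-, MM9LINCRNAEXON11204+ and CK383189 differed from AY761185 by 0.05 to 0.06. MM9LINCRNAEXON11204+, well above background on all 9 arrays, stood at 2.10 to 2.18 on the controls, 0.13, -0.21 and 0.61 in CaPO4 replicates 1 to 3 and -0.18, -0.08 and 0.95 on naringenin.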

How the data were processed

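RNA of 9 aorta samples was measured on 9 single-colour arrays, 3 per group. Spot intensity was extracted and background-subtracted on each array alone. The authors used Agilent Feature Extraction 11.0.1.1 for this, per the submitters' processing notes. The deposited scanner files also hold raw spot intensity, local background and marks for outlier spots and spots well above background, which are given per the file headers. The deposited table of all arrays held the same values within 0.0999%. Control and outlier spots were removed, log2 intensity of repeated spots was averaged, and the 75th percentile over spots was subtracted. A probe counted as above background if 50% or more of its spots had this mark. This was required on at least 3 arrays, which kept 37498 of 59709 probes, and 36923 of these had a value on every array. All 3 genes passed this filter, Mucl2 and AY761185 with 5 and 6 arrays. Of 123 RefSeq accessions 116 matched a GRCm38 name table.

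SDs are over 3 arrays and SEs were computed from the group SDs. The number of arrays limits the precision. The genes, lists and limits were chosen with earlier results of these data known. The rule named the 8 following and 5 opposing RefSeq genes and 5 other named probes each way that were nearest to Amy2a5, and the 3 nearest to each other gene. The shape measure was tested on simulated data. Python 3.11.15, pandas 2.3.3, R 4.3.3 and limma 3.58.1 (normexp with offset 50, quantile normalisation) were used. Alternatives covered scaling, background correction, outlier spots, the deposited table, values near background and arrays left out.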

Additional observations from a re-analysis of the deposited data

How the results depend on the processing

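Over all alternatives, each difference from control kept its direction for the 3 genes. Naringenin minus control for Amy2a5 was 9.72 with normexp, and its other differences moved by less than the replicate SD, which CaPO4 2 widens. Its rank on naringenin 2 went from 12 to 14 with outlier spots kept. For Mucl2, CaPO4 minus control was -2.60 without scaling and -0.46 with normexp. Naringenin minus CaPO4 was -1.25 and -0.96 with these, and -1.38 with values near background raised. Naringenin minus control was -1.43 with normexp, -2.84 with values raised and -4.24 with the percentile over probes detected on all arrays. For AY761185, CaPO4 minus control was -1.40 with that percentile, -0.83 by the array median, -2.17 without scaling, -0.85 after quantile normalisation, -0.16 with normexp and -0.62 with values raised. Its naringenin minus CaPO4 was 1.18 without scaling, -0.31 with normexp and -0.40 with values raised, and its naringenin minus control was -1.38 with that percentile and -0.47 with normexp. Normexp adds 50 to each spot, which compresses dim probes. The cause of the moves, with normexp or in other settings, was not tested.

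Which probes were named as nearest to Amy2a5 depended on the settings. Of 13 following and 10 opposing, 2 and 3 were named again by Spearman's rho, 0 and 3 without scaling, 7 and 6 by the array median and 7 and 3 with normexp. With detection on all arrays 8 of the 13 were named again, and with a span of at least 3 log2 6 of the 10. Leaving out 1 array, 7 to 11 following and 6 to 8 opposing were named again, and between 29 and 47 RefSeq probes followed, a count added after seeing the data.

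Leaving out 1 array, Amy2a5 ranged from 1.59 to 6.10 in CaPO4 minus control and from 4.14 to 8.65 in naringenin minus CaPO4. Naringenin and CaPO4 separated for AY761185 only without naringenin 3, at -0.17. No paired analysis was possible because no result comes from a test and the replicate numbers only name the arrays.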

Other observations

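The clone AK007918, chosen after its values were seen, was 1 of the few named probes as bright as Amy2a5. Its level was 1.00, 0.34 and 0.22 on control 1 to 3, 8.17, 11.32 and 8.14 in CaPO4 replicates 1 to 3 and 11.15, 11.11 and 9.92 on naringenin. It was high on CaPO4 1 and 3 as well, at ranks 337 and 350, where Amy2a5 stood at ranks 7102 and 7182. It lay at ranks 9 to 13 on CaPO4 2 and naringenin. Another transcript, uc009vfa.1, was brighter than Amy2a5 on every array, at ranks 1 to 8. On CaPO4 2, 16 probes were brighter than Amy2a5, 14 of them named by a design number alone, and 4 probes were brighter than it on CaPO4 2 and on each naringenin array.

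A further 3 genes were named after their values were seen. Ccl28, a chemokine of mucosal epithelium, was well above background on control 1 and 2, CaPO4 2 and naringenin 3, at -1.57, -2.03, -2.19 and -3.10. Defb33, a beta-defensin gene that lies near AY761185 on chromosome 8, was not well above background on any array. Hhipl2 was well above background only on CaPO4 2 and naringenin 1 and 3, at -1.86, -2.06 and -2.41. The lymphatic chemokine gene Ccl21b stood at 4.93 to 5.05 on the controls, 7.58, 9.65 and 7.70 in CaPO4 replicates 1 to 3 and 8.51 to 9.59 on naringenin, so CaPO4 2 lay above the other CaPO4 arrays there too.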
